A study of Mus musculus with 22 samples.

Results

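The genes described here are 10 genes of cytotoxic lymphocytes and natural killer (NK) cells, chosen by name: the granzymes Gzma, Gzmb and Gzmk, the pore former Prf1, the granule protein Nkg7, the receptors Ncr1, Klrb1c and Klrk1, the cytokine Ifng and the transcription factor Eomes. Gzmb is also among the genes that the study named from these samples, as are the T cell markers Cd3e, Cd3g and Cd5 used below. All 10 were among the 41388 genes counted, and all 10 passed the filter on low counts (more than 1 CPM, the usual count scaled to the library total, in at least 2 libraries), as did 15018 genes in all. RNA-seq was made from the stroma of breast tumors grown in C57BL/6 mice at postnatal day 56. Every mouse carried the Ai9 reporter, in which Cre activity switches on the red protein TdT (tdTomato), and a Cre under a tetracycline-responsive Osx (Sp7) promoter, so TdT marks cells with a history of activity of that promoter. The study states that mice fed doxycycline until weaning, which suppresses this Cre, were used in all work after its first experiments. Its passage on RNA-seq does not repeat the diet. The wild type group was Osx-cre;Ai9, and the other group was Cdh2-cKO;Ai9, in which Cdh2 (N-cadherin) was to be deleted by the same Cre. The sample labels call the tumors orthotopic MMTV-BO1, whereas the design text and the methods give subcutaneous inoculation, with a GFP-labelled line (PyMT-BO1) whose cells were removed by their GFP. Stromal cells were sorted on TdT and on CD45, the pan-leukocyte surface protein, into TdT single positive (TdT+;CD45-), double positive (TdT+;CD45+), CD45 single positive (TdT-;CD45+) and double negative cells. There were 3 libraries of each population and genotype, except for TdT single positive cells with 2 each, which gives 11 wild type and 11 Cdh2-cKO libraries. The labels call them biological replicates but do not say which populations came from the same mouse, so p-values measure the spread between these libraries.

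Cytotoxic T cells and NK cells kill target cells by releasing granules. Perforin, the product of Prf1, opens the target membrane, granzymes enter and cleave proteins of the target, and Nkg7 takes part in granule release. NK cells choose targets through receptors such as NKp46 (Ncr1), NK1.1 (Klrb1c) and NKG2D (Klrk1), of which NKG2D is also carried by CD8 T cells, and interferon gamma (Ifng) is a cytokine that both cell types release to act on macrophages and tumor cells. Eomes is a T-box transcription factor of NK cells and effector CD8 T cells. Both cell types are CD45+ and are known to infiltrate tumors.

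In the GRCm38 annotation all 10 are protein-coding. Gzma (ENSMUSG00000023132, chr13:113093825-113100979) and Gzmk (ENSMUSG00000042385, chr13:113171608-113225908) are neighbours on the minus strand of chromosome 13, and Gzmb (ENSMUSG00000015437) lies at chr14:56258856-56262260, also on the minus strand. Klrb1c (ENSMUSG00000030325, chr6:128778485-128789215) and Klrk1 (ENSMUSG00000030149, chr6:129610323-129623864) lie on the minus strand of chromosome 6, the chromosome of the NK gene complex. On the plus strand are Nkg7 (ENSMUSG00000004612, chr7:43437073-43438246), Ncr1 (ENSMUSG00000062524, chr7:4337724-4345164), Prf1 (ENSMUSG00000037202, chr10:61297836-61304263), Ifng (ENSMUSG00000055170, chr10:118441047-118445892) and Eomes (ENSMUSG00000032446, chr9:118478212-118486132). Only Gzmk overlaps another gene model, Esm1 on the opposite strand, and their exons share 0 bases, so the unstranded counts of the members do not mix with those of an overlapping gene. Granzymes and Klr receptors are multigene families, and only uniquely aligned, unambiguous reads were counted.

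Promoters were read for all 10 genes from RefSeq (build GRCm38.p6), as windows from 250 bases before to 50 bases after each start. These are shown because the members moved together between libraries, as described below, where T cell markers differed alongside them. Any part of the promoters in those levels was not tested. The core letters of RUNX factors, TGTGGT on either strand, were present in 7 of the 10 members (Gzma, Gzmb, Klrb1c, Klrk1, Ncr1, Nkg7 and Prf1). Counted by window, they were in 8 of the 11 windows of the members and in 16.8% of all 32851 windows. The T-box core GGTGTGA, the letters that Eomes-type factors bind, was present in Gzmk and Nkg7 and in 3.98% of all windows. The STAT letters TTCNNNGAA were present in Gzmb, Ifng and Nkg7 and in 8.3% of all windows. The RUNX and T-box letters can overlap at GGT where they stand end to end, and the STAT letters read the same on both strands. A match is a description of letters, not of binding. The 250 bases before the start are printed here for Gzma (chr13:113100982-113101231) and Gzmb (chr14:56262335-56262584), the granzymes whose proportion differed most between the CD45+ populations, and for Klrb1c (chr6:128788642-128788891) and Klrk1 (chr6:129623865-129624114), the receptors that passed the test in both genotypes. All 4 are on the minus strand and are given 5′ to 3′ along the gene, with RUNX letters (TGTGGT, or ACCACA for the other strand) in capitals.
Gzma: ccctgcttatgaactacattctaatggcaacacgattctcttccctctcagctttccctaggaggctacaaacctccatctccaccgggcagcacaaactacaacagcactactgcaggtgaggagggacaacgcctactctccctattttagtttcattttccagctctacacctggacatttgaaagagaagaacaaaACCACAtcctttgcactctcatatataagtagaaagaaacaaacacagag
Gzmb: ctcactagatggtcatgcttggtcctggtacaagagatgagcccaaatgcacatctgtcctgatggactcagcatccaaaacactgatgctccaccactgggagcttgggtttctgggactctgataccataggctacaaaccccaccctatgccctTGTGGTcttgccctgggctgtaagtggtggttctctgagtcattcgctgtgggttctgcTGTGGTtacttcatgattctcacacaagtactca
Klrb1c: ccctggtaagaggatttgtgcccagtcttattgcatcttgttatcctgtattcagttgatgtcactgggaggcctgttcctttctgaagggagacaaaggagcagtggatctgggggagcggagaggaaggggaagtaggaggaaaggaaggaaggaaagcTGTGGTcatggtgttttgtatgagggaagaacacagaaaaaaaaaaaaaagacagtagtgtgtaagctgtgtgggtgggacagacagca
Klrk1: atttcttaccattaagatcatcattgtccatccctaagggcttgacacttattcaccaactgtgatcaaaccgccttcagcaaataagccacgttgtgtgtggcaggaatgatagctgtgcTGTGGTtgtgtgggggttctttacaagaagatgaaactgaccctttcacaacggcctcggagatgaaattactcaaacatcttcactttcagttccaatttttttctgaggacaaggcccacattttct

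The libraries held between 16594228 and 26784003 counts (median 18977040), and 3 counts, taken as the floor, amount to 0.1 to 0.2 normalized CPM (CPM of the library size scaled by TMM factors). Ptprc, which encodes CD45, was 465 to 1690 normalized CPM in the 12 CD45+ libraries and 2.4 to 337 in the 10 CD45- libraries, where double negative wild type replicate 3 (337) and TdT single positive replicate 1 labelled Cdh2-cKO (160) were highest. In CD45 single positive wild type replicate 2 the summed B cell markers were 3200 normalized CPM against 8.27 to 21.4 in the other 11 CD45+ libraries, the summed T cell markers were 1860 against 8.3 to 449, and the summed macrophage and monocyte markers were 5880 against 23700 to 48800. The fold changes and correlations that rest on that library are therefore given with and without it, whereas counts over gene lists are with every library. Cdh2 was not lower in the CD45- libraries labelled Cdh2-cKO (12.5 to 19.1 normalized CPM) than in the wild type ones (4.51 to 8.95). Counts per gene do not resolve the deleted part, so the genotype is given as labelled throughout.

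Gzma and Gzmb were detected in every CD45+ library but at levels that spanned orders of magnitude within a group. Gzmb, the main apoptosis-inducing granzyme, was 10.8, 79.8 and 209 normalized CPM in wild type double positive cells, 6.84, 431 and 14.6 in wild type CD45 single positive cells, 19.3, 13.6 and 6.94 in double positive cells labelled Cdh2-cKO and 28.2, 6.81 and 4.68 in CD45 single positive cells labelled Cdh2-cKO. In CD45- libraries Gzmb was 0.45 and 3.8 (TdT single positive) and 0.236, 2.51 and 11.7 (double negative) in wild type, and 6.08 and 2.88, and 2.55, 0.453 and 1.46, in those labelled Cdh2-cKO. The CD45+ and CD45- values overlapped: double negative wild type replicate 3, at 11.7, lay above 5 of the 12 CD45+ libraries.

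Gzma, a tryptase of the same granules, was 0.517, 3.54 and 24.2 normalized CPM in wild type double positive cells and 2.26, 472 and 1.62 in wild type CD45 single positive cells. In the libraries labelled Cdh2-cKO it was 1.85, 0.283 and 0.758 in double positive cells and 11, 0.868 and 2.5 in CD45 single positive cells. A single library, CD45 single positive wild type replicate 2, thus held 89.8% of the Gzma CPM summed over all 22 libraries. The third granzyme, Gzmk, was at most 1.94 in the other CD45+ libraries and 17.6 in that library, with no read in wild type double positive replicate 1 and none in the 3 double negative libraries labelled Cdh2-cKO, which allows up to 0.1 to 0.2 normalized CPM each, for counting error only. Prf1 was 0.575, 7.54 and 18.2 in wild type double positive cells, 1.62, 159 and 2.09 in wild type CD45 single positive cells and 0.25 to 5.44 in the 6 CD45+ libraries labelled Cdh2-cKO. Nkg7 followed the same order of libraries in wild type, with 3.05, 28.7 and 109 in double positive cells and 4.58, 638 and 5.43 in CD45 single positive cells, and was 2.06 to 27.9 in the CD45+ libraries labelled Cdh2-cKO.

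**Figure D1:**
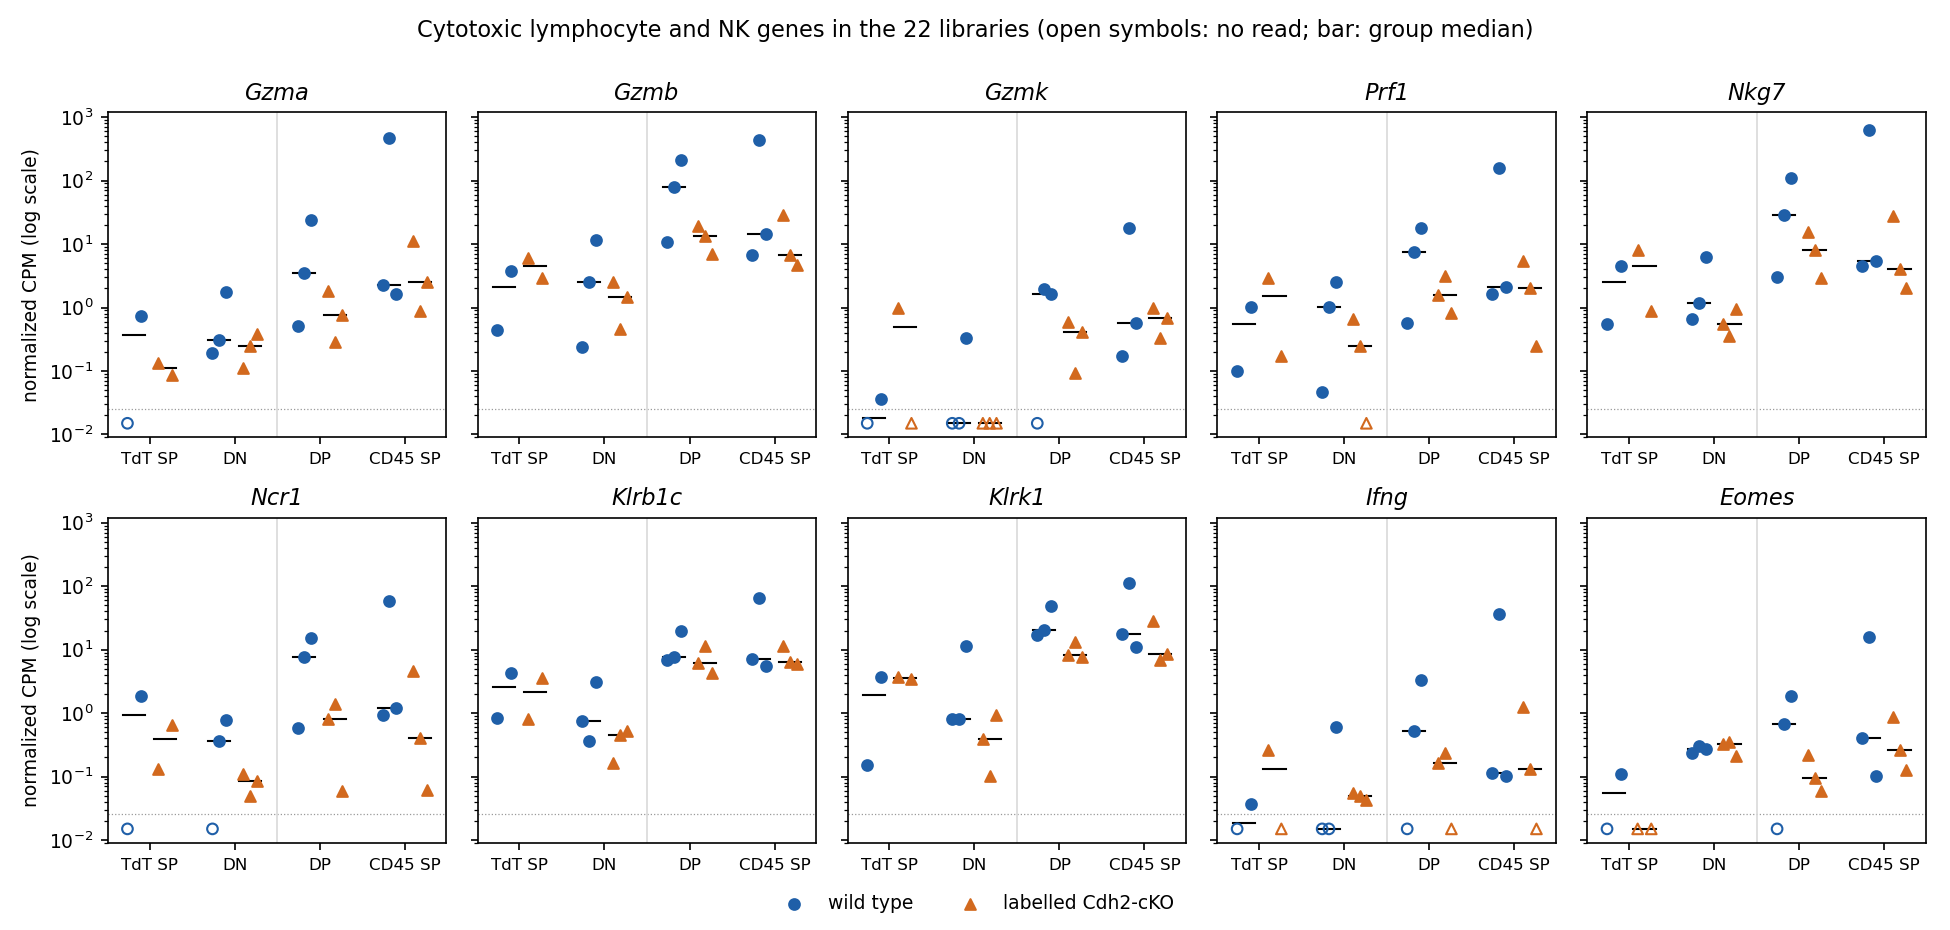
Normalized CPM (vertical axis, log scale) of each gene in the 22 libraries, by sorted population (horizontal axis) and genotype; points are libraries, bars are group medians and open symbols mark libraries with no read. CD45 single positive wild type replicate 2 is the highest point of every panel, at 472 for Gzma and 114 for Klrk1, whereas over the other CD45+ libraries Klrb1c lies within 4.26 to 20 and Klrk1 within 6.95 to 49.1.

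The receptors Klrb1c and Klrk1 varied less. Klrb1c was 6.95, 7.65 and 20 normalized CPM in wild type double positive cells, 7.24, 65.6 and 5.59 in wild type CD45 single positive cells, 6.15, 11.3 and 4.26 in double positive cells labelled Cdh2-cKO and 11.3, 6.35 and 5.93 in CD45 single positive cells labelled Cdh2-cKO. All 12 CD45+ libraries lay above all 10 CD45- libraries, although narrowly, since the lowest CD45+ library was at 4.26 and the highest CD45- library, TdT single positive wild type replicate 2, at 4.24. Klrk1 was 16.9, 20.1 and 49.1 in wild type double positive cells, 17.4, 114 and 11.1 in wild type CD45 single positive cells, 8.38, 13.1 and 7.75 in double positive cells labelled Cdh2-cKO and 28.4, 6.95 and 8.55 in CD45 single positive cells labelled Cdh2-cKO. For Klrk1, 7 of the 12 CD45+ libraries lay above every CD45- library, the highest of which was double negative wild type replicate 3 at 11.6. Without CD45 single positive wild type replicate 2, the highest CD45+ library was 2.88 times the median for Klrb1c, 3.38 times for Gzmk and 3.76 times for Klrk1, against 8.62 to 25 times for the other 7 genes.

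The third receptor, Ncr1, which is nearly restricted to NK and related innate cells, spread over the CD45+ libraries as widely as the granule genes. It was 0.575, 7.65 and 15.5 normalized CPM in wild type double positive cells, 0.927, 59.0 and 1.2 in wild type CD45 single positive cells and 0.0583 to 4.58 in the CD45+ libraries labelled Cdh2-cKO. Ifng and Eomes were close to the floor in most libraries. Ifng was 0, 0.514 and 3.34 in wild type double positive cells (0, 9 and 64 counts), 0.116, 36.2 and 0.104 in wild type CD45 single positive cells (2, 680 and 2 counts) and 0 to 1.24 in the CD45+ libraries labelled Cdh2-cKO. Eomes was 0, 0.685 and 1.88 in wild type double positive cells, 0.406, 16 and 0.104 in wild type CD45 single positive cells, and 0.0583 to 0.862 in the CD45+ libraries labelled Cdh2-cKO. Only CD45 single positive wild type replicate 2 and wild type double positive replicate 3 held more than 30 counts of Ifng or of Eomes.

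Levels of different genes were compared per kb of gene model. Over the 12 CD45+ libraries the median was highest for Gzmb (9.94 normalized CPM per kb), followed by Nkg7 (7.68), Klrk1 (3.47), Klrb1c (2.4), Gzma (2.34), Prf1 (0.996), Ncr1 (0.691), Gzmk (0.422), Ifng (0.123) and Eomes (0.0583). Each neighbouring pair in this order overlapped in range over the libraries, and the order is a description. These are bulk libraries, and fewer cells of a type and less RNA per cell cannot be told apart.

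The sort on CD45 gives the comparison in which these genes differed. Taking the mean of both CD45+ populations against the mean of both CD45- populations over the genotypes, all 10 members were higher in CD45+ cells at an adjusted p of at most 0.05 (edgeR quasi-likelihood test, Benjamini-Hochberg adjustment over all 15018 genes), in a comparison where 31.2% of all genes were called higher. The median log2 fold change of the members was 3.58 against 0.03 over all genes tested, with a range of 3.11 to 4.88, and it was also 3.58 over the 8 members with reads in every group. Among the granule genes the log2 fold change was 4.88 ± 1.11 for Gzma (SE, edgeR adjusted p = 0.000928), 3.81 ± 0.84 for Gzmb (0.000755), 3.92 ± 0.97 for Nkg7 (0.00193) and 3.20 ± 0.95 for Prf1 (0.00703). Among the receptors it was 3.11 ± 0.55 for Klrb1c (adjusted p = 9.66e-05), 3.41 ± 0.65 for Klrk1 (0.0002) and 3.51 ± 1.01 for Ncr1 (0.00567). The smallest errors were thus those of Klrb1c and Klrk1. Ifng was higher by 3.64 ± 1.26 (0.0179). Gzmk (adjusted p = 0.00426) and Eomes (0.00936) were called as well, but each had a group with no read, and the size of their change depends on the prior count of the fit. Eomes had a median of 0.242 normalized CPM in the 12 CD45+ and 0.225 in the 10 CD45- libraries. It was 0.214 to 0.352 in the 6 double negative libraries, all above the double positive median of 0.156, and 0 to 0.11 in the 4 TdT single positive libraries. In CD45- libraries Ifng and Eomes were at most 0.606 and 0.352, and both exceeded 1 CPM only in CD45+ libraries. They passed the filter through those libraries, so the direction of both calls is not independent of the filter. Gzma, Gzmk and Ncr1 would not have passed the filter on the CD45- libraries alone either. The direction of their calls has the same limit.

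Without CD45 single positive wild type replicate 2 the changes were smaller. The median of the 9 members that still passed the filter was 2.61, with Gzma at 3.31, Gzmb at 2.86, Nkg7 at 2.57, Prf1 at 1.98, Ncr1 at 2.45, Klrb1c at 2.61 and Klrk1 at 2.98 on the log2 scale. In all, 8 members stayed called, whereas Ifng was at 1.97 (edgeR adjusted p = 0.109) and Eomes no longer passed the filter. With every library, voomWithQualityWeights, which weights libraries by their quality, called 4 (Gzmb, Gzmk, Klrb1c and Klrk1).

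The same comparison was made within each genotype. In wild type all 10 members were called higher in CD45+ cells (24.4% of all genes), with a median log2 fold change of 4.98, from 3.19 ± 0.77 for Klrb1c (edgeR adjusted p = 0.00258) to 6.15 for Gzma. In the libraries labelled Cdh2-cKO 2 of 10 were called (22.6% of all genes), namely Klrb1c at 3.04 ± 0.78 (0.0038) and Klrk1 at 3.17 ± 0.92 (0.00836). The other 8 had positive log2 fold changes with adjusted p between 0.0699 and 0.485, and the median over the 10 was 2.60. The difference between the genotypes was itself tested, an addition made after the values were seen: no member was called (0% of all genes), none had an unadjusted p below 0.05 and the smallest was 0.0679, for Gzmb. DESeq2, which gave no adjusted p for Gzma in any comparison, and voomWithQualityWeights also called 0 members for that difference. Without CD45 single positive wild type replicate 2, the wild type median was 2.56, close to the 2.62 of the libraries labelled Cdh2-cKO in the same fit, and Gzma in wild type was at 2.99. Then 6 members were called in wild type and 5 in the libraries labelled Cdh2-cKO (Gzma, Gzmb and Nkg7 joined Klrb1c and Klrk1), and 3 were called in the latter without wild type CD45 single positive replicate 1 or 3. Without TdT single positive wild type replicate 1, in which Gzma, Gzmk, Ncr1, Ifng and Eomes had no read, 4 were called in wild type. With every library voomWithQualityWeights called 2 in each genotype, Klrb1c and Klrk1.

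**Figure D2:**
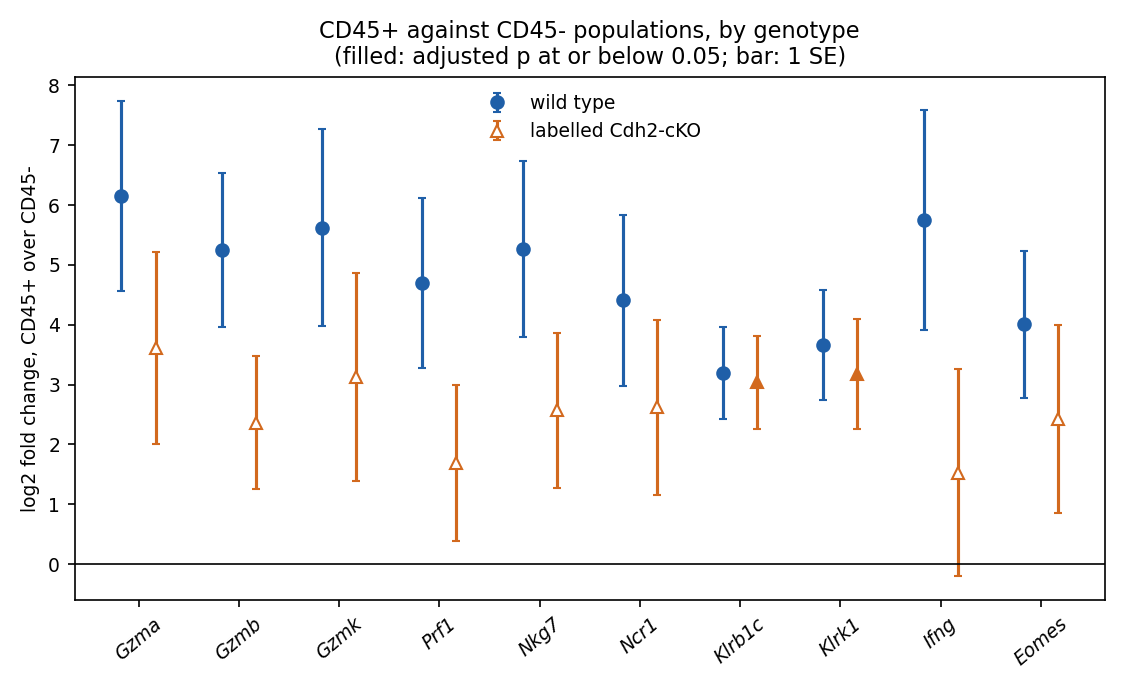
Log2 fold change of CD45+ over CD45- populations (vertical axis, bars 1 SE) for each of the 10 genes, by genotype, with filled symbols where the adjusted p was at or below 0.05. All 10 wild type symbols are filled, from 3.19 to 6.15, whereas of those labelled Cdh2-cKO only Klrb1c (3.04) and Klrk1 (3.17) are. CD45 single positive wild type replicate 2 is included: without it the wild type values run from 2.18 to 3.63 with 6 called, and 5 are called in the libraries labelled Cdh2-cKO.

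T cell markers differed alongside these genes. Over the CD45+ libraries other than CD45 single positive wild type replicate 2, the 8 T cell markers (Cd3e and others) summed to 8.3 to 449 normalized CPM, and in the CD45- libraries to 3.87 to 26.2. By the same comparison, with CD45 single positive wild type replicate 2 included, 7 of the 8 were called higher in CD45+ cells in wild type (24.4% of all genes). In the libraries labelled Cdh2-cKO 0 of 8 were called higher (22.6% of all genes). The difference between the genotypes in this change was called for no gene (0% of all genes). The 6 NK markers, of which 4 are members, summed to 12.6 to 95.4 in the same CD45+ libraries, 322 in CD45 single positive wild type replicate 2 and 1.0 to 16.7 in CD45- libraries. Within wild type double positive cells, the T cell sum was 45.4, 199 and 449, and Gzmb (10.8, 79.8 and 209) took the same order. Klrk1 (16.9, 20.1 and 49.1) took that order too, over a smaller span. The part of T cell content in the results on these genes was not tested.

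**Figure D3:**
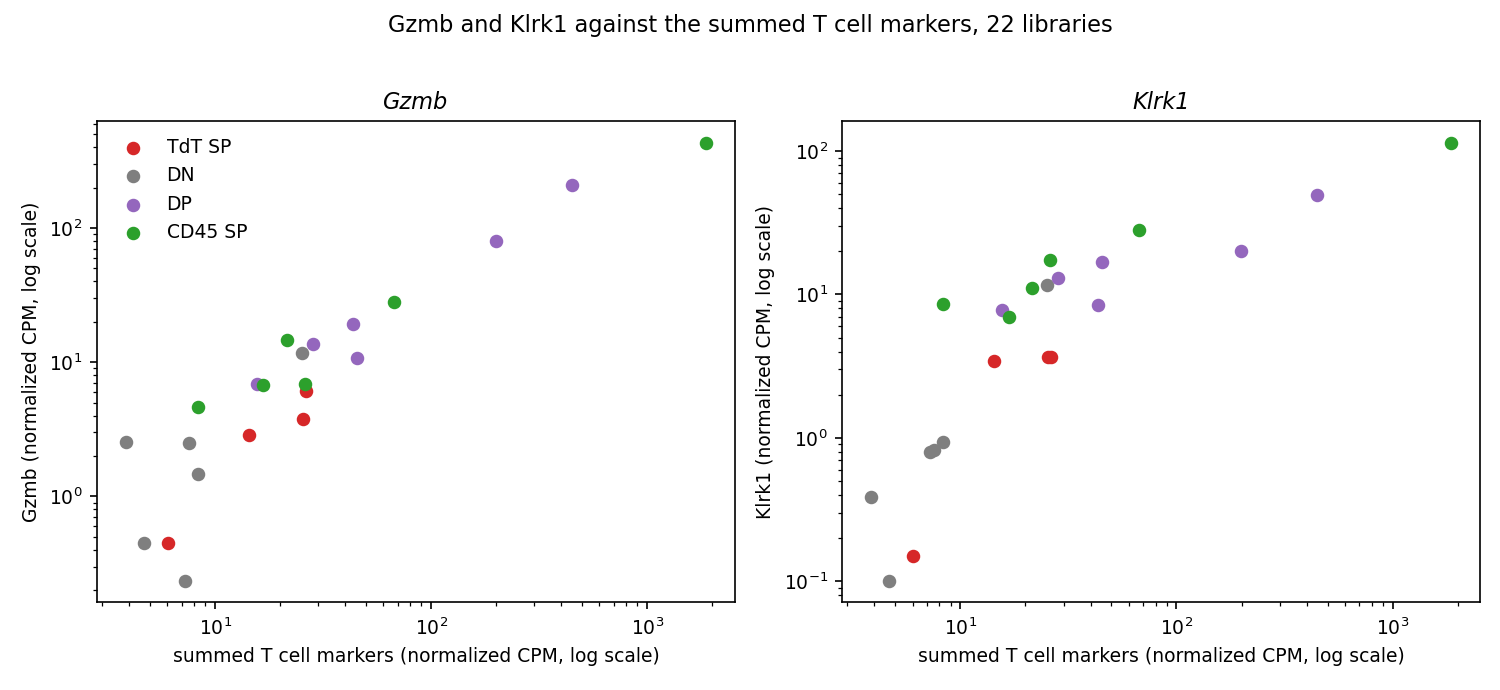
Normalized CPM of Gzmb and Klrk1 (vertical axes, log scale) against the summed T cell markers (horizontal axis, log scale), with 1 point per library and colour by population. CD45 single positive wild type replicate 2 is the point farthest right, at a T cell sum of 1860, with Gzmb at 431 and Klrk1 at 114.

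Double positive and CD45 single positive cells are both leukocyte populations and differ in the TdT label, so their comparison asks whether TdT+ leukocytes carry a different cytotoxic programme. In wild type none of the 10 members was called (0% of all genes), and 1 of them, Gzma, had an unadjusted p below 0.05. All 10 log2 fold changes were negative, from -4.07 ± 1.70 for Gzma and -3.23 for Ifng to -0.73 for Klrk1 and -0.59 ± 1.32 for Gzmb, with a median of -2.28 against -0.045 over all genes. The direction rested on CD45 single positive wild type replicate 2. Without it the 9 members that could be tested had positive log2 fold changes, from 0.85 for Klrb1c and 1.01 for Klrk1 to 3.22 for Gzmb, 3.23 for Nkg7 and 3.48 for Ifng, again with none called. The values of Gzmb show the overlap: the double positive values (10.8, 79.8 and 209) lay between the highest and the lowest CD45 single positive value (6.84, 14.6 and 431). DESeq2, with 9 members tested, and voomWithQualityWeights also called 0 members, the latter with a positive median of 1.16. The study listed Gzmb as higher in double positive than in CD45 single positive cells. By its methods each population was set against the mean of the others, which is a different contrast from the one here.

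**Figure D4:**
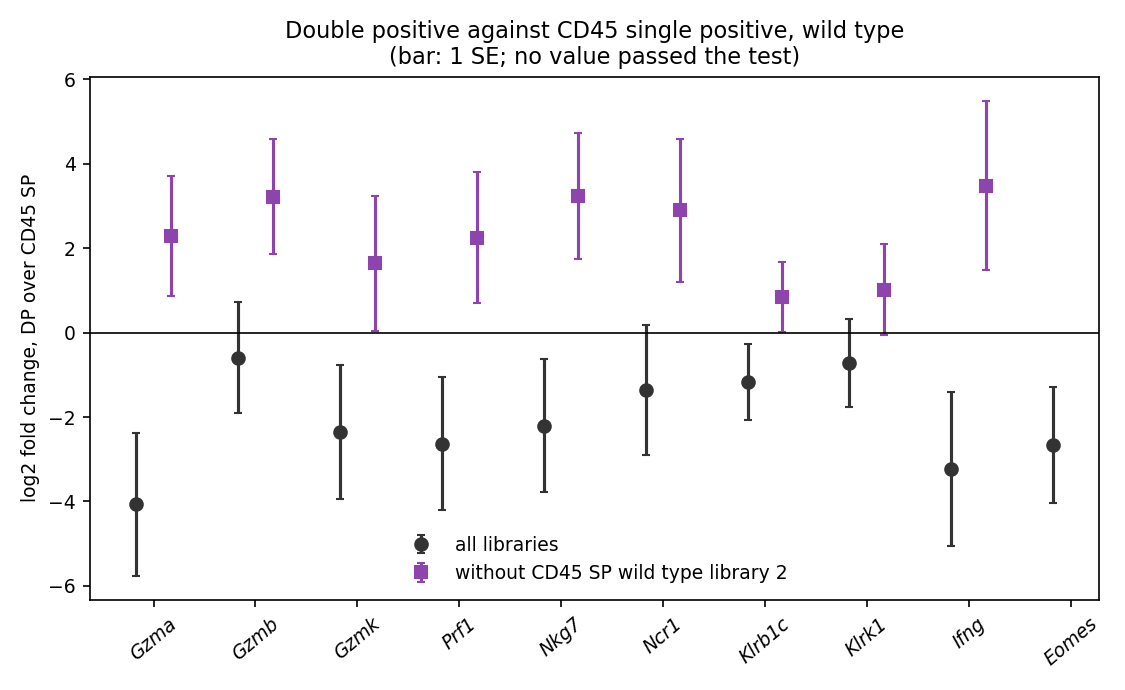
Log2 fold change of double positive over CD45 single positive cells in wild type (vertical axis, bars 1 SE) for each gene, with all libraries and without CD45 single positive wild type replicate 2. All 10 values with every library are below 0, from -4.07 to -0.59, and all 9 values without that library are above 0, from 0.85 to 3.48; no value passed the test.

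In the libraries labelled Cdh2-cKO, double positive and CD45 single positive cells gave no call either: none of the 10 members was called (0% of all genes) and none had an unadjusted p below 0.05, with a median log2 fold change of -0.73 that became 0.53 without CD45 single positive replicate 1. Over both genotypes none was called (0.00666% of all genes), and 2 had an unadjusted p below 0.05, Gzma and Eomes. The median over both genotypes was -1.42 with all libraries and 0.865 without CD45 single positive wild type replicate 2. The difference between the genotypes in this comparison was called for none (0% of all genes), with a smallest unadjusted p of 0.338. DESeq2 and voomWithQualityWeights called 0 members in all 3 of these comparisons.

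Ratios between genes of the same library were computed after the values had been seen, to set the members against each other apart from their common level. There were 55 of them, 45 between members and 10 of a member to the summed T cell markers, each on log2 counts with 0.5 added and compared between the 6 double positive and the 6 CD45 single positive libraries by a two-sided exact permutation test, whose smallest possible p is 0.00216. The differences given here for Gzma and Eomes had unadjusted p below 0.05 but none passed adjustment over the 55. Its log2 ratio to Gzmb was -3.98 ± 0.94 (SD, n = 6) in double positive and -1.63 ± 1.24 (SD, n = 6) in CD45 single positive cells, a difference of -2.35 (exact permutation p = 0.00649, adjusted 0.0893). The double positive libraries spanned -5.47 to -3.11 and the CD45 single positive libraries -3.16 to 0.133, so the ranges overlapped narrowly. Without CD45 single positive wild type replicate 2 the difference was -2.0 (exact permutation p = 0.013, adjusted 0.143).

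Per 100 reads of the T cell markers, Gzma had 1.14, 1.78 and 5.4 reads in wild type double positive cells and 4.25, 0.997 and 4.85 in those labelled Cdh2-cKO. In CD45 single positive cells it had 8.69, 25.3 and 7.56 reads in wild type and 16.4, 5.2 and 30.1 in those labelled Cdh2-cKO. Thus 5 of the 6 CD45 single positive libraries lay above all 6 double positive libraries, and the remaining one, at 5.2, lay below only the highest double positive value of 5.4. The difference in log2 ratio was -2.34 (exact permutation p = 0.00433, adjusted 0.0893). For Gzmb the values overlapped fully. Per 100 T cell reads it had 23.8, 40 and 46.7, and 44.4, 47.8 and 44.4, in double positive cells, and 26.3, 23.1 and 68.3, and 41.9, 40.8 and 56.4, in CD45 single positive cells, a difference in log2 ratio of 0.01 (exact permutation p = 0.974). For Eomes against the T cell markers the difference in log2 ratio was -1.93 (exact permutation p = 0.00216, the smallest possible, adjusted 0.0893). It rested on Eomes counts of 0 to 36 in the double positive libraries. In the CD45 single positive libraries the counts were 300 in wild type replicate 2 and 2 to 16 in the others. Of the 55 ratios, 7 had an unadjusted p below 0.05 and 0 an adjusted p at or below 0.05, with the same counts without CD45 single positive wild type replicate 2. Within a genotype the Gzma to Gzmb difference was -2.43 in wild type (exact permutation p = 0.2) and -2.27 in the libraries labelled Cdh2-cKO (exact permutation p = 0.1, the smallest that 3 against 3 can give).

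**Figure D5:**
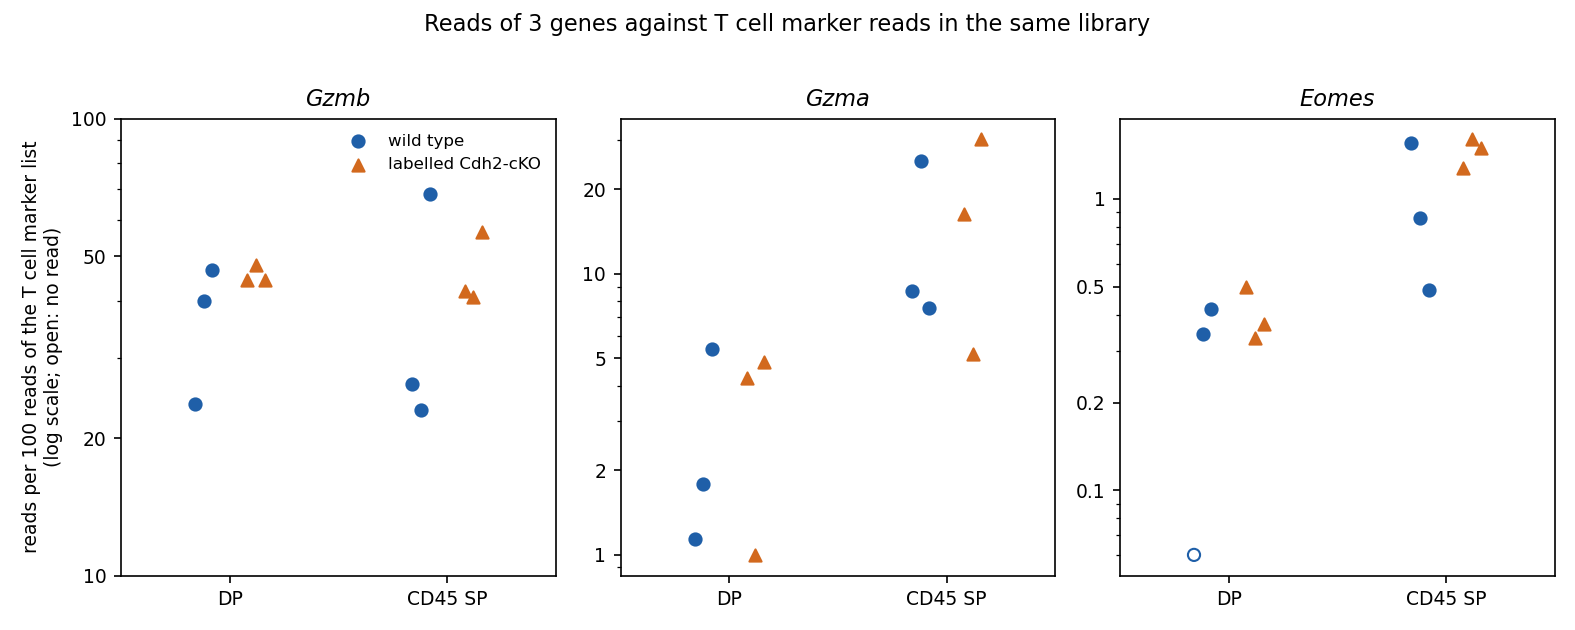
Reads of Gzmb, Gzma and Eomes per 100 reads of the T cell marker list (vertical axes, log scale) in double positive and CD45 single positive libraries, by genotype, with 1 point per library and open symbols where there was no read. Gzma lies at 0.997 to 5.4 in double positive and 5.2 to 30.1 in CD45 single positive cells, whereas Gzmb overlaps fully, at 23.8 to 47.8 against 23.1 to 68.3.

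On a per kb basis, Gzmb made up most of the 3 granzymes in double positive cells. The share of Gzma was 7.18%, 6.54% and 15.6% in the wild type libraries and 13%, 3.23% and 14.3% in those labelled Cdh2-cKO. In CD45 single positive cells it was 34.2%, 63.0% and 14.7%, and 37.9%, 16.4% and 42.8%. The lowest CD45 single positive share, 14.7% in wild type replicate 3, lay below the highest double positive share, 15.6%.

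Among the CD45- populations the members were low but not absent. In TdT single positive cells Nkg7 was 0.55 and 4.46 normalized CPM in wild type and 8.18 and 0.872 in the libraries labelled Cdh2-cKO, and Klrk1 was 0.15 and 3.65, and 3.67 and 3.44. In double negative cells Nkg7 was 0.66, 1.18 and 6.17, and 0.553, 0.352 and 0.942, and Klrk1 was 0.801, 0.819 and 11.6, and 0.387, 0.101 and 0.942. For these 2 genes the highest value fell in a library with much Ptprc, TdT single positive replicate 1 labelled Cdh2-cKO for Nkg7 and double negative wild type replicate 3 for Klrk1, whose summed macrophage markers were 12400 and 17900 normalized CPM. Klrb1c and Ncr1 did not follow Ptprc in that way: both were highest in TdT single positive wild type replicate 2 (4.24 and 1.86), where Ptprc was 76.6, and were at 0.801 and 0.134 in replicate 1 labelled Cdh2-cKO, where it was 160. Among the TdT single positive libraries Nkg7 and Klrk1 were lowest in wild type replicate 1, with Ptprc at 2.4 and macrophage markers at 137. The part of CD45+ cells in these values was not tested. Between TdT single positive and double negative cells none of the 10 members was called (2.04% of all genes), and 2 had an unadjusted p below 0.05, Klrb1c (log2 fold change 1.67 ± 0.76, edgeR adjusted p = 0.235) and Eomes, which had at most 3 counts in any TdT single positive library. Klrb1c was 0.85, 4.24, 0.801 and 3.58 in the 4 TdT single positive libraries and 0.166 to 3.14 in the 6 double negative ones. With double negative wild type replicate 3, TdT single positive replicate 1 labelled Cdh2-cKO and CD45 single positive wild type replicate 2 left out together, a choice made after seeing the data, Klrb1c was called (2.79, edgeR adjusted p = 0.0173).

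Genotype was compared within each population, and no member was called in any of the 4. In double positive cells all 10 log2 fold changes of the libraries labelled Cdh2-cKO against wild type were negative, from -3.38 to -0.68 (median -2.57), with 0 called (0% of all genes) and 0 at an unadjusted p below 0.05. The median stayed negative when any library was left out (-3.18 to -1.09). The 8 T cell markers were all negative in the same comparison, with a median of -2.98 and 0 called, and their part in the members' values was not tested. Gzmb illustrates the overlap: the double positive values labelled Cdh2-cKO (19.3, 13.6 and 6.94) reached above the lowest wild type value (10.8) but not above the others (79.8 and 209). In CD45 single positive cells all 10 were negative (median -3.63), 7 had an unadjusted p below 0.05 and 0 were called (0% of all genes, smallest adjusted p of a member 0.476). Without CD45 single positive wild type replicate 2 that median was 0.673.

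In TdT single positive cells, with 2 libraries each, 0 members were called (0.00666% of all genes), 0 had an unadjusted p below 0.05 and the median was 0.858. It was -1.62 without TdT single positive replicate 1 labelled Cdh2-cKO and -0.002 without wild type replicate 1. In double negative cells 0 were called (0% of all genes), 1 had an unadjusted p below 0.05 (Klrk1, log2 fold change -3.15 ± 1.24, edgeR adjusted p = 0.35) and the median was -1.93. For Klrk1 the 3 wild type double negative libraries were 0.801, 0.819 and 11.6 normalized CPM and those labelled Cdh2-cKO 0.387, 0.101 and 0.942, which overlap, and the highest wild type value was that of the library with the most Ptprc. DESeq2 and voomWithQualityWeights called 0 members in each of the 4 genotype comparisons.

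Other genes of the cytotoxic machinery were taken from lists of granule, receptor, adaptor, cytokine and transcription factor genes, and compared between CD45+ and CD45- populations over both genotypes. Of 15 further granzymes and genes of granule exocytosis tested, 7 rose in CD45+ cells and 1 fell (31.2% of all genes rose and 32.1% fell by this test), with a median log2 fold change of 1.01 against 0.03 over all genes. They included Rab27a (2.93 ± 0.39), a GTPase that docks granules, Ctsc (2.40 ± 0.33), the cathepsin that activates granzymes, Stxbp2 (2.08 ± 0.31), of granule fusion, and Srgn (3.44 ± 0.52), the granule proteoglycan. Ctsc and Srgn are also abundant in macrophages. Gzme, a granzyme of the cluster beside Gzmb, fell by 2.87 on the log2 scale (edgeR adjusted p = 0.00291) and was named after its value was seen. Gzme was 1.05 to 51.4 normalized CPM in CD45- libraries and 0 to 6.33 in CD45+ libraries, which overlap.

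Of 21 further NK receptors tested, 19 rose and 1 fell (median 4.43, or 4.11 over the 14 with reads in every group), where 31.2% of all genes rose. In wild type alone, with CD45 single positive wild type replicate 2 included, 20 rose (24.4% of all genes). In the libraries labelled Cdh2-cKO alone 9 rose (22.6% of all genes), and 0 of the receptors were called for the difference between the genotypes. Klrc2, Klrg1, Klra1, Klra3, Klra8, Klra9, Cd226, Crtam and Klrb1f were at most 0.826 normalized CPM in every CD45- library. These genes passed the filter through CD45+ libraries, so their direction is not independent of it. The inhibitory receptor Klrg1 (4.87 ± 0.71), Klrb1f and Cd226, and Fasl and Lta among the death ligands, are on a list that the study took from these samples and are not independent evidence of direction. Cd244a, the receptor 2B4 (3.20 ± 0.40), and the Nkrp1 genes Klrb1b (4.33 ± 0.55) and Klrb1a (2.69 ± 0.48) rose too. Klrb1c and Klrb1a (6.71 normalized CPM) were highest in CD45 single positive wild type replicate 2. There Cd244a (77.9) and Klrb1b (48.5) lay near their medians of 74.5 and 46.3 over the CD45+ libraries. Klra4, a Ly49 receptor gene named after its value was seen, fell by 2.63 on the log2 scale (edgeR adjusted p = 0.000214). Its median was 64.2 normalized CPM in CD45- and 7.24 in CD45+ libraries. The Ly49 genes are near-identical copies, so the assignment of reads is uncertain for Klra4 and for the other Klra genes of this list. All 5 receptor adaptors tested rose, among them Hcst (3.44 ± 0.49), the partner of Klrk1, Tyrobp (3.39 ± 0.59), Fcer1g (3.30 ± 0.61), which pairs with Ncr1, and Sh2d1a (4.53 ± 1.05). Tyrobp and Fcer1g are also abundant in macrophages.

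Of the 8 death ligands and cytotoxic cytokines all 8 rose (median 3.17, or 3.10 over the 7 with reads in every group), among them Tnf (3.10 ± 0.56), Ccl3 (3.24 ± 0.68), both also made by macrophages, and Fasl (5.19 ± 1.03), the ligand of the death receptor Fas. Lta was called too, but had no read in TdT single positive cells, and its size is not given. Of 9 transcription factors 7 rose and 1 fell. Stat4 (4.06 ± 0.67), Runx3 (3.14 ± 0.51), whose family binds the letters marked in the promoters above, Id2 (2.02 ± 0.30) and Nfil3 (1.15 ± 0.21) rose. In CD45 single positive wild type replicate 2, where every member was highest, Runx3 was 64.8 normalized CPM and Id2 1090. Their medians over the CD45+ libraries were 65.5 and 1160. In that library Stat4 was 52.8 (median 5.72) and Nfil3 56.1 (median 43.8). Zbtb16 fell by 2.33 on the log2 scale and was named after its value was seen. Of 8 cytokine receptors 6 rose, including Il18r1 (4.00 ± 0.75), Il21r (3.55 ± 0.67) and Il2rg (1.57 ± 0.30), and 1 fell, Il15ra, by 1.97 on the log2 scale. Of 8 interferon gamma receptors and targets 5 rose (median 0.98), with Ciita at 3.81 ± 0.68, Ifngr1 at 1.68 ± 0.14, Ifngr2 at 1.02 ± 0.15 and Cxcl10 at 0.95 ± 0.22. Of 5 ligands of the member receptors tested 2 rose, the NKG2D ligands Raet1d (2.27 ± 0.32) and H60b (1.89 ± 0.46), with a list median of -0.12, a share near that of all genes. Among the genes counted in these lists, Fasl, Lta, Sh2d1a, Tbx21 and H60b were at most 0.661 normalized CPM in every CD45- library. They passed the filter through CD45+ libraries, so their direction is not independent of it. All 33 named genes of these lists stayed called without CD45 single positive wild type replicate 2, although some at smaller values, with Fasl at 3.92, Sh2d1a at 3.17 and Il18r1 at 3.10. No gene of these lists was called in the comparisons of double positive with CD45 single positive cells, of genotypes or of the CD45- populations, nor for the difference between genotypes in the CD45+ against CD45- change.

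Across the 12 CD45+ libraries the lowest correlation of a pair of members was r = 0.698 (Gzmk with Klrk1, log2 CPM). Without CD45 single positive wild type replicate 2 Gzmk followed the receptors less closely, with r = 0.269 for Klrb1c, the lowest of all pairs, 0.335 for Klrk1 and 0.512 for Ncr1. The genes with the pattern most like the mean of the members were Clnk (r = 0.985), an adaptor of immunoreceptor signalling, Gm20069 (0.98), Ms4a4b (0.98), Gimap7 (0.979), the NK receptor gene Klrc1 (0.979), Tcf7 (0.977), a transcription factor of T cells, Samd3 (0.975), Klra13-ps (0.975), Trbj2-7 (0.974), a joining segment of the T cell receptor, and Gimap4 (0.974). Only Klrc1 of these 10 was on a list of cytotoxic genes. Clnk also ranked first without CD45 single positive wild type replicate 2 (r = 0.975 over 11 libraries). These correlations are descriptions over 12 libraries that share depth and cell content, in which that library is the highest for every member.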

How the data were processed

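RNA was made into unstranded SMARTer libraries and sequenced as single-end reads. Per the labels and the methods, the authors aligned them with STAR 2.0.4b to GRCm38 and counted uniquely aligned, unambiguous reads per gene with featureCounts. The raw counts that the authors deposited, 1 file per library, were used here. The deposited CPM (counts divided by the library total) and RPKM (also by gene length) of the same files were recomputed from the counts and matched. Groups came from the sample labels of the 22 libraries. No pair of libraries of a group agreed within sampling noise (chi-square per degree of freedom 49.7 to 409), so none was the same library sequenced again. Whether any were separate libraries of the same RNA was not tested.

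Following the study's filter, genes above 1 CPM in at least 2 libraries and not annotated as rRNA were kept. Counts were fitted with edgeR 4.0.16 (R 4.3.3, TMM factors, quasi-likelihood F test) with 1 mean for each of the 8 groups in 1 fit over all libraries, and p-values were adjusted over all 15018 genes by the Benjamini-Hochberg method at a threshold of 0.05. The common biological coefficient of variation was 0.435. Alternatives were voomWithQualityWeights (limma 3.58.1, the study's weighting method, which it used to set 1 population against the mean of the others), DESeq2 1.42.0, RLE factors, no filter, a log2 fold threshold of 2, a replicate block, only the libraries compared, and leaving out each library. The scripts were tested on simulated data. The members and the gene lists were chosen with earlier results of these data known. The text names all 10 members, up to 4 called genes of each list by smallest adjusted p (otherwise the most abundant), and the 10 genes most correlated with the members' mean over the CD45+ libraries. Floors cover counting error only.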

Additional observations from a re-analysis of the deposited data

Results flagged for a closer look

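For each member, the log2 of normalized CPM with 0.5 added was examined over the libraries of each sorted population, both genotypes together, and the gap of the highest or lowest library to its nearest neighbour was divided by the range (Dixon's ratio, critical value 0.625 for 6 libraries and 0.829 for 4). Of 40 such groups 16 had a library standing apart, where chance gives about 1 in 20 for a single group. The members moved together over the same libraries, so the 40 groups are not independent and their count cannot be set against that rate. CD45 single positive wild type replicate 2 stood above the other 5 CD45 single positive libraries for Gzma (0.636), Gzmk (0.763), Klrb1c (0.723), Ifng (0.71) and Eomes (0.754). Double negative wild type replicate 3 stood above the other double negative libraries for Gzma (0.717), Gzmk (1.0, with 6 counts against none elsewhere), Nkg7 (0.67), Klrb1c (0.627), Klrk1 (0.708) and Ifng (0.868). In double positive cells only Ifng had such a library, wild type replicate 3 (0.653).

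In TdT single positive cells, replicate 1 labelled Cdh2-cKO stood above the other 3 for Gzmk (0.936, 30 counts) and for Ifng (0.835, 8 counts). Wild type replicate 1 stood below the others for Klrk1 (0.969, at 0.15 normalized CPM), and wild type replicate 2 was the only one with a read of Eomes (1.0, 3 counts). These libraries also differed in markers of other cells, with a Ptprc level of 337 normalized CPM in double negative wild type replicate 3 and 160 in TdT single positive replicate 1 labelled Cdh2-cKO. The part of those cells in these values was not tested.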

How the results depend on the processing

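Over both genotypes, all 10 members stayed called higher in CD45+ cells with RLE factors, without the filter, at a log2 fold change of at least 2 and with the replicate block, and 8 to 10 when 1 library was left out. The weighting method of the study, voomWithQualityWeights, on the same contrasts called 4 over both genotypes and 2 in wild type. With 1 library left out, 4 to 10 were called in wild type and 2 to 5 in the libraries labelled Cdh2-cKO. In the latter, DESeq2 (no adjusted p for Gzma, so 9 members tested) called 4, the replicate block 4 and a fit of only the libraries compared 6. The omission of the 3 libraries whose markers stood apart, chosen after seeing the data, called 6. They were CD45 single positive wild type replicate 2, double negative wild type replicate 3 and TdT single positive replicate 1 labelled Cdh2-cKO. That omission also called 1 member between TdT single positive and double negative cells. Of 30 same-numbered pairs of a genotype, 10 had a correlation of deviations over 0.1 (r -0.297 to 0.595, median 0.0525), as did 6 of 60 pairs with different numbers (median -0.0215). Not every same-numbered pair passed 0.1 and the labels do not say what a number marks, so the replicate block was kept as an alternative only.

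The direction between wild type double positive and CD45 single positive cells turned in 3 settings, with no call in any. By voomWithQualityWeights the log2 fold changes were 0.99 for Gzma, 2.64 for Gzmb, 0.56 for Gzmk, 1.32 for Prf1, 2.17 for Nkg7, 2.04 for Ncr1, 0.66 for Klrb1c, 0.83 for Klrk1, 1.65 for Ifng and 0.55 for Eomes (median 1.16). Without the 3 libraries they were 2.27 for Gzma, 3.21 for Gzmb, 1.64 for Gzmk, 2.23 for Prf1, 3.21 for Nkg7, 2.88 for Ncr1, 0.84 for Klrb1c, 1.0 for Klrk1 and 3.47 for Ifng (median 2.27). With 1 library left out, the ranges were -6.36 to 2.29 for Gzma, -1.80 to 3.22 for Gzmb, -2.93 to 1.64 for Gzmk, -3.81 to 2.24 for Prf1, -3.84 to 3.23 for Nkg7, -2.38 to 2.89 for Ncr1, -1.90 to 0.85 for Klrb1c, -1.42 to 1.01 for Klrk1 and -5.60 to 3.48 for Ifng, with the upper end without CD45 single positive wild type replicate 2. The cause was not tested.

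Medians of the members that turned were those of double positive against CD45 single positive cells over both genotypes (0.43 by voomWithQualityWeights, 0.85 without the 3 libraries, -1.79 to 0.865 with 1 left out), in wild type (-2.85 to 2.29 with 1 left out) and in the libraries labelled Cdh2-cKO (-1.13 to 0.53). So did those of TdT single positive against double negative cells (-0.871 to 1.91) and of genotype in CD45 single positive cells (0.675 without the 3 libraries, -5.18 to 0.673) and in TdT single positive cells (-1.57, and -1.62 to 4.06). Levels under 0.1 to 0.2 normalized CPM, as for Ifng in most CD45- libraries and Eomes in TdT single positive cells, are below what this depth resolves. With 2 or 3 libraries per group, differences smaller than the spread of 1 library were not resolved.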
